A study of Mus musculus with 6 samples.

Results

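The 10 genes described here are bone morphogenetic protein (BMP) ligands (*Bmp2*, *Bmp3*, *Bmp4*, *Bmp5*, *Bmp6* and *Bmp7*), the type I receptors *Bmpr1a*, *Bmpr1b* and *Acvr1*, and the type II receptor *Bmpr2*. They were taken by gene symbol from a table of 27506 genes, and all 10 were found in it. RNA-seq was performed on dental pulp of the mandibular first molar of C57BL/6 mice at P3.5 (3.5 days after birth). The 3 control libraries came from mice labelled *Ror2fl/fl*, a genotype that names floxed *Ror2* alleles and no Cre, and the 3 mutant libraries from *Osr2-Cre;Ror2fl/fl* mice. The study asked how the receptor *Ror2*, which transduces non-canonical Wnt signals, acts in tooth root development. *Osr2-Cre* acts in the mesenchyme of the tooth and in alveolar bone and spares the epithelium, so epithelial *Ror2* is not deleted in the mutants. Neither the labels nor the methods state whether a library came from 1 animal or from several pooled ones.

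BMPs are secreted dimers that bring together type I and type II serine/threonine kinase receptors, after which the type II receptor phosphorylates the type I receptor and the type I receptor phosphorylates SMAD proteins that enter the nucleus with SMAD4. Secreted antagonists such as Noggin and Chordin bind the ligands outside the cell and limit this signal. In the tooth, BMPs pass signals back and forth between the epithelium and the mesenchyme and are known for roles in crown patterning, odontoblast differentiation and root formation.

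The libraries held between 56134770 and 62628940 estimated counts, and levels are given in CPM, the counts of a gene scaled to a common library size by the TMM method. *Ror2* was lower in the mutants, at 38.2, 36.2 and 36.7 CPM in control libraries 1, 2 and 3 and at 27.9, 28.1 and 26.3 CPM in mutant libraries 1, 2 and 3 (log2 fold change −0.43, SE 0.08, adjusted p = 0.013). This call was lost without control library 2 (adjusted p = 0.066) or control library 3 (0.075). Odontoblast markers were abundant. Their summed level varied within each group, from 15349 to 46744 CPM in controls and from 13495 to 36292 CPM in mutants. *Col1a1* and *Dspp* gave most of this. Of the 6 odontoblast markers 0 were called in edgeR's quasi-likelihood test, 0 were at an unadjusted p under 0.05, DESeq2 and edgeR's likelihood ratio test called 0 and limma voom 1. Ameloblast transcripts were abundant too, although the labels give dental pulp. The 10 epithelial markers summed to between 172510 and 192530 CPM in controls and between 185890 and 256160 CPM in mutants, with *Amelx* and *Ambn* giving most of this. Of these 10, 0 were called, 4 were at an unadjusted p under 0.05, and DESeq2 called 3, the likelihood ratio test 1 and limma voom 5. All 5 skeletal muscle markers were lower in the mutants, at sums of 8.13 to 31.0 CPM in controls and 1.91 to 2.17 CPM in mutants. Both edgeR tests and DESeq2 called all 5, and limma voom called 2. The part of these cell types in the BMP results was not tested.

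Among the 9 BMP genes with enough counts to be tested, 3 passed an adjusted p of 0.05 in edgeR's quasi-likelihood test, and all 3 were lower in the *Osr2-Cre;Ror2fl/fl* libraries: the ligand *Bmp5* and the receptors *Bmpr1a* and *Bmpr2*. Of all 19330 genes tested, 9.84% were called lower and 10.4% higher. In 4 of the 9 BMP genes every mutant library lay below every control library, as in 22.1% of all genes tested, while 44.7% of all genes had groups that did not overlap in either direction. The median log2 fold change was −0.52 over the 9 genes and 0.01 over all genes. Fewer cells of a type and less RNA per cell cannot be told apart in bulk tissue. The 3 calls depended on single libraries: with each library left out in turn, between 0 and 3 BMP genes passed. The 0 arose without control library 2, where 4 were below an unadjusted p of 0.05, and without control library 3, where 3 were.

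**Figure D1:**
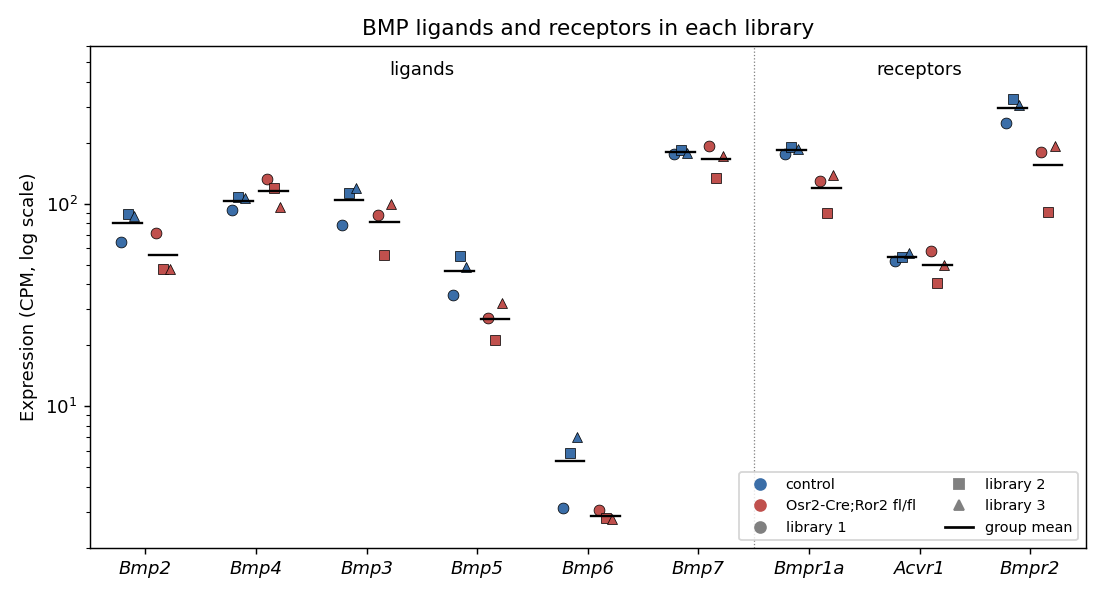
Level of each tested BMP gene in each library, in CPM on a log axis. Points are single libraries, with the group given by colour and the replicate number by shape, and bars are group means. For *Bmp5*, *Bmp6*, *Bmpr1a* and *Bmpr2* all 3 mutant libraries lie below all 3 control libraries.

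Levels can be compared between genes only per length, and here they are given in CPM per kilobase of the exons of the gene. In controls the highest were the ligands *Bmp4* (45.6 ± 3.62, mean ± SD, n = 3) and *Bmp7* (44.6 ± 1.18), whose libraries overlapped. *Bmpr1a* came next at 29.0 ± 1.23 and did not overlap *Bmp7* above it or *Bmp2* (22.5 ± 3.86) below it. From *Bmp2* down through *Bmpr2* (16.4 ± 2.27), *Bmp3* (14.01 ± 3.03), *Bmp5* (11.5 ± 2.51) and *Acvr1* (11.3 ± 0.476), each gene overlapped the next. *Bmp6* lay apart at 1.37 ± 0.511, and *Bmpr1b* was lowest. In the mutants *Bmp4* (51.6 ± 8.01) and *Bmp7* (41.4 ± 7.504) were again the highest and again overlapped. The type II receptor *Bmpr2*, at 8.60 ± 3.10, stood 7th there against 5th in controls, although its mutant libraries overlapped those of its neighbours *Acvr1* and *Bmp5*. Divided by its longest transcript in place of all exons, *Bmpr2* stood 4th in controls and 7th in mutants.

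The promoters of 3 genes are shown because they belong to the genes that passed the test. Each runs 5′ to 3′ along the gene from 250 bases before to 50 bases after the start in RefSeq (build GRCm38.p6). *Bmp5* is at chr9:75775115-75775414 on the plus strand, *Bmpr1a* at chr14:34502497-34502796 on the minus strand and *Bmpr2* at chr1:59764029-59764328 on the plus strand. The stretches of *Bmpr1a* and *Bmpr2* lie inside the gene positions given below, downstream of the gene start there, whereas that of *Bmp5* spans its gene start. Capitals mark, on either strand, the GC box GGGCGG, the SMAD box CAGAC and the GC-rich SMAD element GGCGCC.
Bmp5: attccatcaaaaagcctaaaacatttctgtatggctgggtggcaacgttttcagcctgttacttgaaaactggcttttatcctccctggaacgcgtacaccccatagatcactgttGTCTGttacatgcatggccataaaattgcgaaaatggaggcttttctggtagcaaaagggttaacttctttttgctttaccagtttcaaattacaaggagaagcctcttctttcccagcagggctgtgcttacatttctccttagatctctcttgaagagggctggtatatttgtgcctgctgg
Bmpr1a: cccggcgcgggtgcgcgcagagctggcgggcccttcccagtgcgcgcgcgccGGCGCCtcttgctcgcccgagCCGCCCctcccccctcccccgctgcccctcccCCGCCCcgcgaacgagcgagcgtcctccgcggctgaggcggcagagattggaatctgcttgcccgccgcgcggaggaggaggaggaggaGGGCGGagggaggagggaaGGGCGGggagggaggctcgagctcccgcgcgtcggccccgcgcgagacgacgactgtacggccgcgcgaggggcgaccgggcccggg
Bmpr2: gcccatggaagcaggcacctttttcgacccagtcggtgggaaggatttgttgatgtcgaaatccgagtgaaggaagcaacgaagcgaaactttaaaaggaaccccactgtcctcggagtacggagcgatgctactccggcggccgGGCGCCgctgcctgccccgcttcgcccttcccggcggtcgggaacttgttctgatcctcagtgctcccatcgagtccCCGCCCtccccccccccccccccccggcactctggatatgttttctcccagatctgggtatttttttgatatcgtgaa
The promoters differ in base composition. *Bmp5* holds 4 CpG dinucleotides, *Bmpr1a* 48 and *Bmpr2* 23, beside a median of 7 over the 32851 promoters of the table. The GC box occurs 0, 4 and 1 times in this order, and in 35.7% of all promoters. The SMAD box occurs once, in *Bmp5*, and in 49.6% of all promoters. The GC-rich element occurs once each in *Bmpr1a* and *Bmpr2* and in 11.9% of all promoters. TATAAA (13.6% of all promoters) and TGANTCA, an AP-1 site (7.81%), occur in none of the 3, and CCAAT (37.4%) occurs once, in *Bmpr1a*. These are matches of letters and were not tested as binding sites. The RefSeq table held promoters for 7 of the 10 genes, and *Bmp2*, *Bmp3* and *Bmp7* had no entry.

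Among the ligands, *Bmp5* showed the only difference that passed the test. *Bmp5*, a ligand of the *Bmp5*, *Bmp6* and *Bmp7* subgroup known for its role in skeletal and cartilage growth, lies on chromosome 9 (mm10 75775364 to 75900310, plus strand). Controls 1, 2 and 3 held 35.4, 55.3 and 48.4 CPM of it, and mutants 1, 2 and 3 held 27.2, 21.1 and 32.2 CPM. The groups did not overlap, with the lowest control above the highest mutant. *Bmp5* fell from 46.4 ± 10.1 to 26.8 ± 5.54 CPM (SD, n = 3), which is 1.73-fold lower (log2 fold change −0.79, SE 0.20, 95% confidence interval −1.24 to −0.34, adjusted p = 0.028). The exact two-sided permutation test gave p = 0.1, the smallest that 3 against 3 libraries allow, as it did for every BMP gene whose groups did not overlap. The call for *Bmp5* was lost without control library 2 (adjusted p = 0.11), control library 3 (0.10) or mutant library 1 (0.070). The antisense gene *Gm26903* overlaps *Bmp5* and shares 45.7% of its 75-base stretches, and without a stated strand their reads cannot be told apart. *Gm26903* itself held only 0.859 ± 0.122 CPM in controls and 0.153 ± 0.0444 CPM in mutants. Summing both genes left *Bmp5* called (log2 fold change −0.81, adjusted p = 0.026).

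*Bmp6*, the least abundant of the ligands, was lower in every mutant library but did not pass the test. *Bmp6*, known for its part in iron regulation and bone, lies on chromosome 13 (38345107 to 38500302, plus strand). Its level was 3.14, 5.88 and 7.01 CPM in controls and 3.08, 2.79 and 2.76 CPM in mutants, so the lowest control and the highest mutant were nearly equal. The log2 fold change was −0.89 (SE 0.28, interval −1.53 to −0.25, adjusted p = 0.055). Without control library 1, the low one, the log2 fold change was −1.17 and *Bmp6* passed (adjusted p = 0.011). *Bmp6* shares 3.92% of its stretches with *Txndc5*, which overlaps it on the opposite strand at 230 CPM in controls. The sum of both, nearly all of it *Txndc5*, gave a log2 fold change of −0.11 (adjusted p = 0.52).

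*Bmp7*, which is expressed in both dental epithelium and mesenchyme, lies on chromosome 2 (172868012 to 172940321, minus strand). Its levels were close together in controls, at 176, 185 and 178 CPM, and spread wider in mutants, at 193, 134 and 172 CPM. The groups overlapped, and the log2 fold change of −0.11 (SE 0.14, interval −0.43 to 0.21, adjusted p = 0.60) had an interval that included both a small fall and a small rise.

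*Bmp2* and *Bmp4*, close relatives that both act in odontoblast differentiation, moved to opposite sides of 0 without passing the test. *Bmp2* (chromosome 2, 133552159 to 133562885, plus strand) was at 64.2, 89.2 and 86.5 CPM in controls and at 71.9, 47.4 and 47.6 CPM in mutants. Mutant library 1 stood above control library 1, so the groups overlapped. The log2 fold change of *Bmp2* was −0.52 (SE 0.19, interval −0.97 to −0.08, adjusted p = 0.084). Without mutant library 1 it was −0.75 and passed (adjusted p = 0.033). *Bmp4* (chromosome 14, 46383520 to 46390669, minus strand) was at 93.2, 108 and 106 CPM in controls and at 132, 120 and 96.3 CPM in mutants. It was the only one of the 9 with a positive log2 fold change, 0.18 (SE 0.13, interval −0.13 to 0.48, adjusted p = 0.36), and mutant library 3 lay within the controls. Over the 6 libraries the genes whose log2 CPM most resembled that of *Bmp4* were *Pacs1* (Pearson's r = 0.994), *Fermt3* (0.993) and *Gm49356* (0.989), a description over libraries that share 2 groups.

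*Bmp3* differs from the other ligands in that it is known to oppose BMP signaling, and it limits bone density. It lies on chromosome 5 (98854415 to 98884396, plus strand). The level was 78.1, 113 and 120 CPM in controls and 88.1, 55.6 and 99.6 CPM in mutants. The groups overlapped, with a log2 fold change of −0.35 (SE 0.23, interval −0.89 to 0.18, adjusted p = 0.29).

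Of the type I receptors, *Bmpr1a* was lower in the mutants, *Acvr1* did not pass the test, and *Bmpr1b* was hardly detected. *Bmpr1a*, which encodes ALK3, the receptor through which *Bmp2* and *Bmp4* chiefly act in dental mesenchyme, lies on chromosome 14 (34410734 to 34503341, minus strand). It was at 175, 190 and 186 CPM in controls and at 129, 89.3 and 139 CPM in mutants. The controls lay close together and all of them above the highest mutant. *Bmpr1a* fell from 184 ± 7.80 to 119 ± 26.1 CPM (SD, n = 3), 1.55-fold lower (log2 fold change −0.63, SE 0.16, interval −1.002 to −0.26, adjusted p = 0.032). Without any 1 of the control libraries, or without mutant library 1, its adjusted p lay between 0.060 and 0.11. Without mutant library 2, the lowest, the log2 fold change was −0.45 and the adjusted p 0.013. The antisense gene *Gm17110* shares 3.36% of the stretches of *Bmpr1a* and held 0.146 CPM in controls and 0.195 CPM in mutants. At that level the sum of both could hardly differ from *Bmpr1a* alone (log2 fold change −0.63, adjusted p = 0.031).

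*Acvr1*, which encodes ALK2, a type I receptor chiefly for the *Bmp5*, *Bmp6* and *Bmp7* subgroup, lies on chromosome 2 (58388644 to 58567157, minus strand). Its level was 52.2, 54.3 and 56.8 CPM in controls and 58.5, 40.7 and 49.7 CPM in mutants. The mutants spread on both sides of the controls, and the log2 fold change was −0.13 (SE 0.13, interval −0.44 to 0.17, adjusted p = 0.49). *Bmpr1b*, which encodes ALK6, a receptor known for its role in limb cartilage (chromosome 3, 141837136 to 142169425, minus strand), had 4, 1 and 3 counts in controls and 2, 2 and 5 in mutants. These counts are around the floor of 3 counts that a count of 0 allows, which covers counting error only, so no difference was detectable at this depth and no fold is given.

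*Bmpr2*, the type II receptor of most BMPs, was the receptor with the lowest log2 fold change. It lies on chromosome 1 (59763400 to 59879014, plus strand), with 17983 bases of exons. Its level was 249, 327 and 308 CPM in controls and 180, 90.8 and 193 CPM in mutants. Every mutant library was below every control library, and mutant library 2 was lower than its fellows by a wide margin. *Bmpr2* fell from 295 ± 40.7 to 155 ± 55.7 CPM (SD, n = 3), 1.91-fold lower (log2 fold change −0.93, SE 0.26, interval −1.54 to −0.33, adjusted p = 0.042). Without mutant library 2 the log2 fold change was −0.65 (adjusted p = 0.015, with 8.99% of all genes called lower in that fit). The call was lost without mutant library 1 or without any 1 control library, with adjusted p between 0.066 and 0.13.

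**Figure D2:**
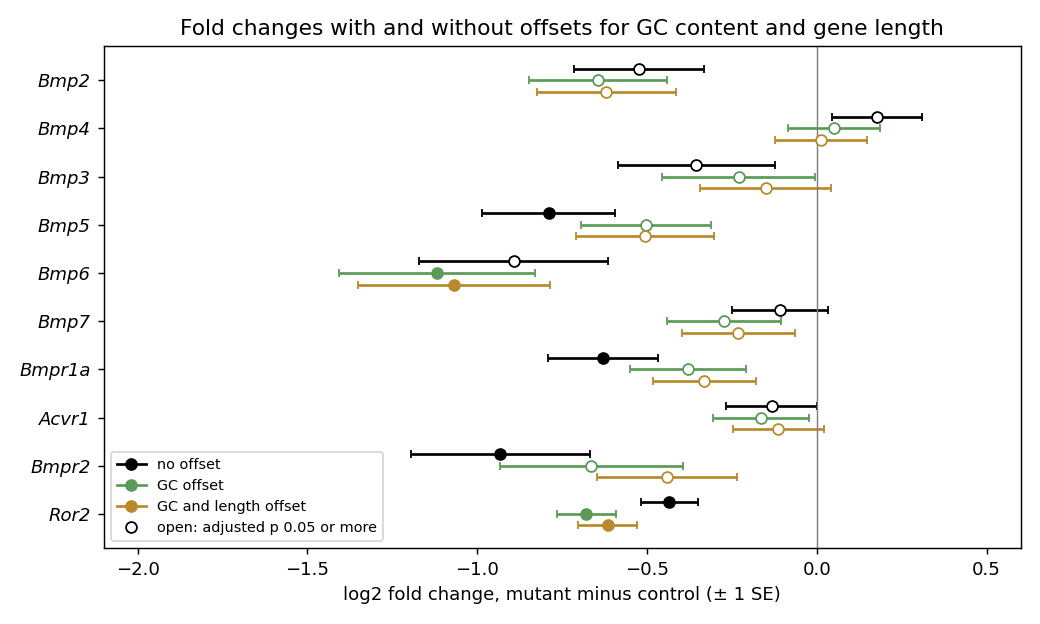
Log2 fold change, mutant minus control, of the 9 tested BMP genes and *Ror2* from edgeR's quasi-likelihood fit. Colours give the fit without an offset, with an offset for GC content, and with an offset for GC content and gene length. Error bars are 1 SE, and filled points have an adjusted p under 0.05. Without an offset these are *Bmp5*, *Bmpr1a*, *Bmpr2* and *Ror2*. With either offset they are *Bmp6* and *Ror2*. Only *Bmp4* lies above 0.

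The same library was often the lowest of its group. Control library 1 was the lowest control for 9 of the 9 tested genes. Its label carries the letter code WW, those of the other controls OW and those of the mutants OR. The sources used here do not explain these codes. Mutant library 2 was the lowest mutant for 7 of the 9 and mutant library 3 for the other 2. Control library 1 and mutant library 2 were also the libraries with the lowest summed odontoblast markers of their groups, at 15349 and 13495 CPM. *Col1a1* and *Dspp* gave most of these sums. Every marker of the list was the lowest of the mutants in mutant library 2. In control library 1 *Col1a1*, *Dspp*, *Phex* and *Nes* were the lowest of the controls, whereas *Dmp1* (64.8 CPM) and *Cd24a* (894 CPM) were the highest. *Phex*, *Nes*, *Dmp1* and *Cd24a* were named after their values were seen. The part of odontoblast content in the BMP levels was not tested.

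The makeup of the family was compared as each gene's share of the summed level per kilobase of its role. The ligands summed to 140 ± 14.2 CPM per kilobase in controls and 127 ± 17.1 in mutants, and the groups overlapped. The receptors summed to 52.3, 59.4 and 58.2 CPM per kilobase in controls and to 42.3, 27.5 and 42.9 in mutants, with every mutant below every control. Most of this sum came from *Bmpr1a* and *Bmpr2*, the receptors that were called lower. The share of *Bmp4* among the ligands was 33.6%, 32.2% and 32.4% in controls and 40.03%, 47.1% and 35.3% in mutants, higher in every mutant library. The shares of *Bmp2* (16.03% ± 1.20 against 12.2% ± 1.45, n = 3) and *Bmp5* (8.18% ± 1.03 against 5.28% ± 1.14) were lower in every mutant library, and so was the small share of *Bmp6*. The shares of *Bmp3* and *Bmp7* overlapped. Among the receptors the share of *Acvr1* was 20.7%, 18.9% and 20.2% in controls and 28.6%, 30.6% and 23.98% in mutants. The CPM of *Bmp4* and of *Acvr1* themselves overlapped between the groups, and neither gene was called. The share of *Bmpr2* was 28.9% ± 2.12 in controls and 22.3% ± 3.54 in mutants, lower in every mutant library, whereas that of *Bmpr1a* overlapped, at 51.2% ± 1.38 and 49.9% ± 1.85.

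**Figure D3:**
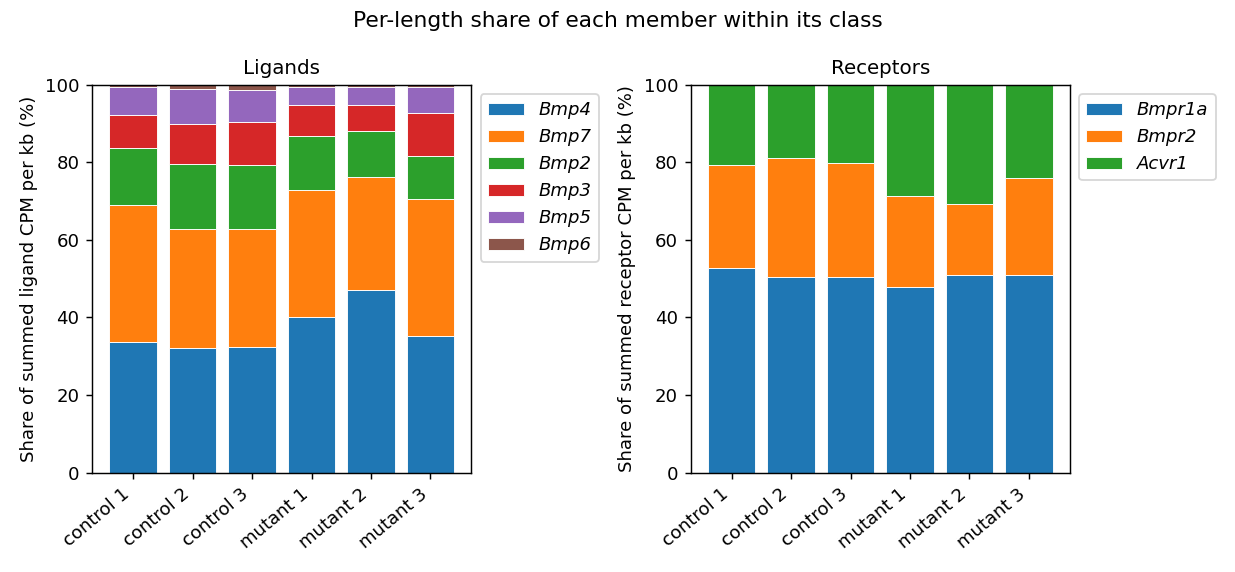
Share of each BMP gene in the summed level per kilobase of its role, in percent, with a bar per library for ligands and for receptors (*Bmpr1b* is too low to be seen and is not drawn). *Bmp4* takes a larger share of the ligands and *Acvr1* a larger share of the receptors in each mutant library than in any control library.

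Ratios within a library do not depend on how libraries are scaled, but the trend of fold change over GC content described below can bear on them. The ratios to *Acvr1* (48.7% GC) and to *Bmp5* (40.5%) set a gene of the lowest GC group against one with more GC. No ratio was computed with an offset for GC content, and the part of GC content in the ratios was not tested. Of 8 ratios of CPM, chosen after the values were seen, 6 did not overlap between the groups (exact two-sided permutation p = 0.1, adjusted p over the 8 = 0.13). The share of non-overlapping ratios among other gene pairs was not computed, and of all single genes tested 44.7% did not overlap. The ratio of *Bmpr1a* to *Acvr1* was 3.36, 3.51 and 3.28 in controls and 2.20, 2.19 and 2.79 in mutants. The ratio of *Bmpr2* to *Acvr1* was 5.41 ± 0.629 in controls and 3.06 ± 0.830 in mutants (SD, n = 3), and that of *Bmpr2* to *Bmpr1a* was 1.60 ± 0.157 and 1.27 ± 0.219. For the ligands, the ratio of *Bmp4* to *Bmp2* was 1.298 ± 0.134 in controls and 2.13 ± 0.363 in mutants. The ratio of *Bmp4* to *Bmp5* was 2.26 ± 0.344 and 4.503 ± 1.38, and that of *Bmp7* to *Bmp5* was 3.99 ± 0.855 and 6.26 ± 0.877. The first 3 ratios were lower in every mutant library than in any control library and these ligand ratios higher. The permutation p of 3 against 3 libraries cannot fall below 0.1, so no ratio could pass at an adjusted p of 0.05. The ratios of *Bmp7* to *Bmp4* and of *Bmp2* to *Bmp7* overlapped.

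The 3 called genes share a property that the choice of genes did not use, a low GC content. The longest transcripts of *Bmp5*, *Bmpr2* and *Bmpr1a* have 40.5%, 41.0% and 41.3% GC. With the untested *Bmpr1b* (42.2%) they lie in the lowest of 5 equal groups of tested genes ordered by GC content (28.3% to 43.8%). All 3 tested BMP genes of that group were called lower, where 21.9% of all its genes were. None of the 6 BMP genes with more GC was called, from *Bmp3* at 44.4% to *Bmp6* at 57.8%, although 2 of them, *Bmp2* and *Bmp6*, had an unadjusted p under 0.05 in edgeR's test and passed with DESeq2, edgeR's likelihood ratio test and limma voom. Across all genes the median log2 fold change rose over these 5 groups, in order of GC content, from −0.27 through −0.12, 0.01 and 0.12 to 0.21. With an offset for GC content in the edgeR fit, *Bmp5* was at −0.50 (adjusted p = 0.11), *Bmpr1a* at −0.38 (0.16) and *Bmpr2* at −0.66 (0.13), each still below 0 but not called. *Bmp6* was then the 1 BMP gene called, at −1.12 (adjusted p = 0.039, with 6.43% of all genes called lower), and *Bmp2* was at −0.64 (0.069). *Ror2*, with 58.9% GC, was at −0.68 (adjusted p = 0.0026) with the offset for GC content. When gene length was offset as well as GC content, *Bmp6* was again the 1 BMP gene called (−1.07, adjusted p = 0.040), where 6.66% of all genes were called lower.

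**Figure D4:**
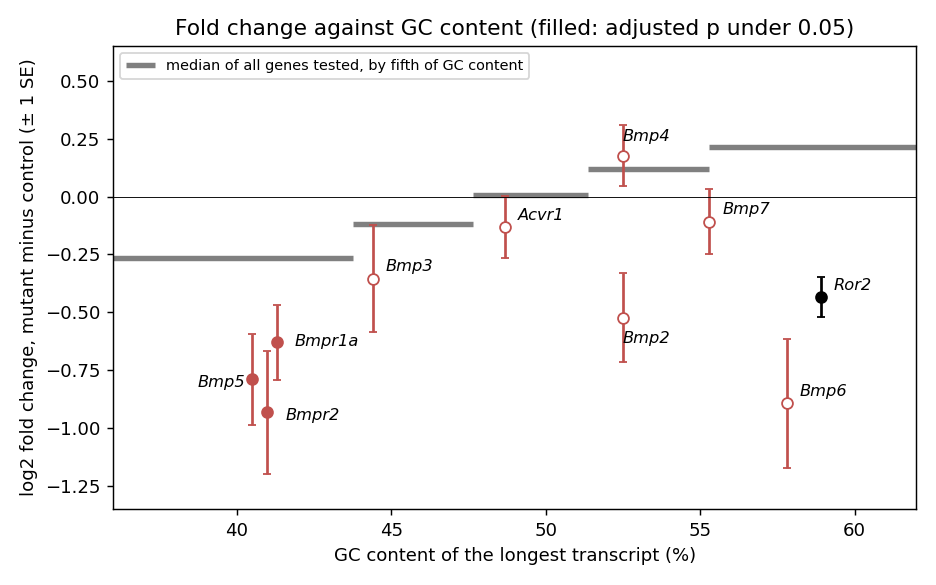
Log2 fold change, mutant minus control, against the GC content of the longest transcript in percent, for the 9 tested BMP genes and for all genes tested (grey bars, the median of each of 5 groups of equal size). Error bars are 1 SE, filled points have an adjusted p under 0.05, and *Ror2* is in black. *Bmp5*, *Bmpr2* and *Bmpr1a* lie at the low end of GC content, where the median of all genes is −0.27.

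Of the other genes of the BMP pathway, 69 of 74 listed were tested. In edgeR's test 5 were higher, 7 were lower and 57 did not pass, at a median log2 fold change of −0.13 beside 0.01 over all genes. The called share was near that of all genes, of which 20.2% were called in either direction. *Sost*, *Gdf10* and *Chrd* had the smallest p-values.

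Among 8 other BMP-class ligands only *Gdf10*, the closest relative of *Bmp3*, was called (median −0.07). It was at 4.88, 5.42 and 4.99 CPM in controls and at 2.20, 2.36 and 1.78 CPM in mutants, with a wide gap between the groups (log2 fold change −1.27, SE 0.17, adjusted p = 0.0030). *Gdf5*, a ligand of joint formation, was at −0.54 (adjusted p = 0.079) and *Gdf7* at −0.68 (0.12). Of these 8 ligands 3 were at an unadjusted p under 0.05, and DESeq2, edgeR's likelihood ratio test and limma voom each called 2. Of 8 other type I and type II receptors 0 were called (median −0.10), with 2 at an unadjusted p under 0.05, *Tgfbr1* (log2 fold change −0.44, adjusted p = 0.062) and *Acvr2a* (−0.40, 0.054), and DESeq2, edgeR's likelihood ratio test and limma voom each called 2. *Acvr1b*, an activin receptor, was at 0.15 (0.31). Of 7 co-receptors, *Rgma*, a membrane-anchored BMP co-receptor, was called higher (43.8 ± 6.05 to 58.9 ± 2.57 CPM, n = 3; log2 fold change 0.43, adjusted p = 0.035). *Rgmb* was at 0.23 (adjusted p = 0.24) and *Nrp1* at −0.33 (0.27). Of 11 SMADs and regulators 0 were called (median −0.17), with 1 at an unadjusted p under 0.05, the inhibitory *Smad6* (−0.36, adjusted p = 0.069). DESeq2 and limma voom each called 1 of them and edgeR's likelihood ratio test 0. The ubiquitin ligase gene *Smurf2* was at −0.31 (adjusted p = 0.14) and the corepressor gene *Skil* at −0.46 (0.15).

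The secreted antagonists and carriers changed in both directions, with 2 of 15 higher, 3 lower and a median of −0.21. In this list 8 were at an unadjusted p under 0.05, and DESeq2 called 7, the likelihood ratio test 6 and limma voom 7. *Chrd*, which encodes Chordin, was at 11.4, 12.5 and 13.1 CPM in controls and at 20.3, 21.6 and 19.6 CPM in mutants. Every mutant library was far above every control (log2 fold change 0.73, SE 0.11, adjusted p = 0.0043). *Sost*, which encodes sclerostin, known chiefly as a Wnt antagonist from osteocytes, was at 4.53, 8.65 and 6.67 CPM in controls and at 0.896, 1.35 and 0.763 CPM in mutants. All mutants were below all controls (log2 fold change −2.72, SE 0.31, adjusted p = 0.0014). *Twsg1*, a carrier that binds BMPs together with Chordin, fell from 179 ± 6.79 to 126 ± 19.7 CPM (n = 3; log2 fold change −0.51, adjusted p = 0.031). The other called genes were *Nog*, which encodes Noggin (−0.45, adjusted p = 0.045), and *Htra1*, a secreted protease (0.81, 0.035), both named after their values were seen. *Gdf10*, *Sost* and *Chrd* passed under each of the 18 alternatives run.

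Of 7 proteases that process ligands or antagonists, *Tll1*, a tolloid protease that cleaves Chordin, was lower (22.1 ± 3.66 to 13.8 ± 2.98 CPM, n = 3; log2 fold change −0.68, adjusted p = 0.040), and *Pcsk7*, a proprotein convertase, was higher (0.37, 0.041). *Tll2*, a second tolloid, was at 0.86 (adjusted p = 0.069), and the median of the list was 0.29. Of the 7 proteases 5 were at an unadjusted p under 0.05, and DESeq2 called 3, the likelihood ratio test 4 and limma voom 4. Of 15 known BMP target genes 2 were lower and 1 was higher, with a median of −0.31. In this list 7 were at an unadjusted p under 0.05, and DESeq2 called 6, the likelihood ratio test 4 and limma voom 8. *Hey1*, a transcription repressor that Notch also induces, was at 91.3, 117 and 114 CPM in controls and at 72.9, 70.2 and 59.9 CPM in mutants, without overlap (log2 fold change −0.67, adjusted p = 0.012). *Id4*, an inhibitor of differentiation, fell from 148 ± 2.76 to 99.97 ± 16.8 CPM (−0.57, adjusted p = 0.024). *Msx2*, a homeobox gene of tooth and bone, rose from 168 ± 8.59 to 219 ± 17.5 CPM (0.38, adjusted p = 0.042). With the GC offset *Gdf5* (log2 fold change −0.73, adjusted p = 0.049), *Gdf7* (−1.21, 0.029) and *Smad6* (−0.64, 0.023) were newly called. With the same offset *Rgma*, *Twsg1*, *Tll1*, *Pcsk7*, *Id4* and *Msx2* were no longer called. The values of *Tll1* (log2 fold change −0.66, adjusted p = 0.051), *Msx2* (0.35, 0.079) and *Twsg1* (−0.43, 0.068) moved little, whereas those of *Id4* (−0.37, 0.13), *Pcsk7* (0.20, 0.20) and *Rgma* (0.15, 0.41) were nearer to 0. With single libraries left out in turn, *Hey1* passed in 4 of 6 fits, *Id4* in 3, *Rgma*, *Twsg1* and *Tll1* in 2 each, and *Pcsk7* and *Msx2* in 1 each.

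**Figure D5:**
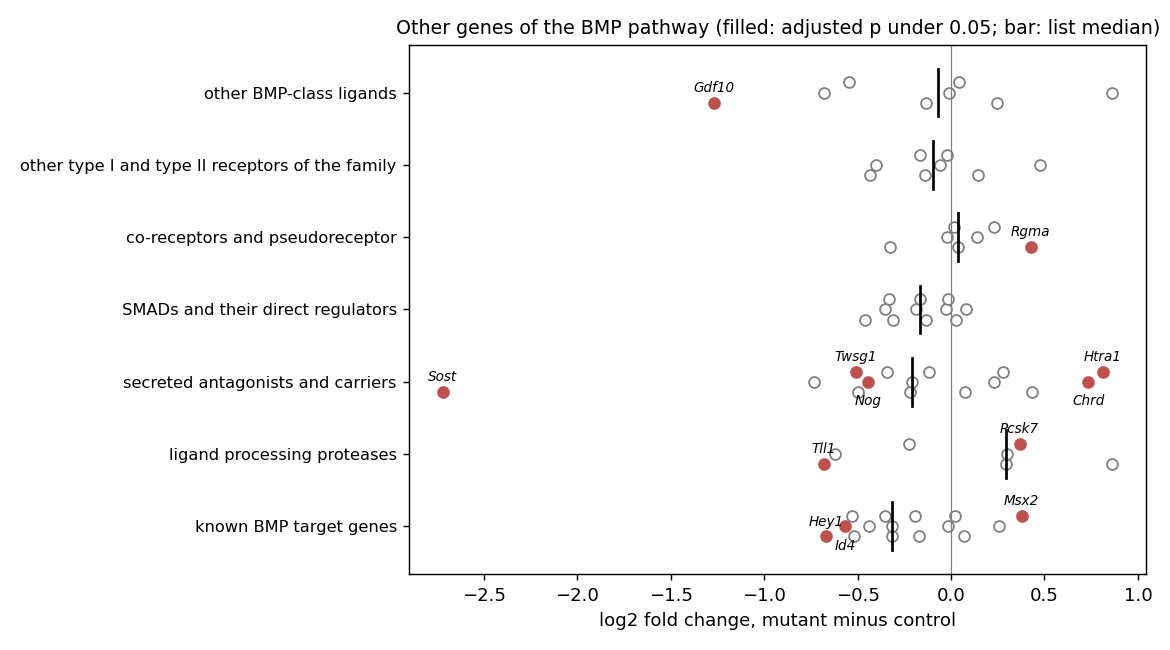
Log2 fold change, mutant minus control, of the other BMP pathway genes by list, with a bar at the median of each list. Filled and named points have an adjusted p under 0.05; *Sost* lies farthest to the left, at −2.72, and *Htra1* and *Chrd* are the called genes farthest to the right.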

How the data were processed

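Dental pulp RNA of 3 control and 3 mutant libraries was sequenced (single-end, 75 cycles). The paper names TopHat 2 and mm10, whereas the submitters' processing notes name STAR 2.6.1d and Partek, so the aligner is uncertain. The counter, the annotation and the use of strand are not given in the sources used here. The authors deposited estimated counts per gene, 47.8% of them whole, and a table of normalized signal, which is not divided by length although RPKM is named. The count table holds 6 columns of other samples, which were not used.

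Estimated counts were rounded, scaled by TMM, filtered with filterByExpr and compared with edgeR 4.0.16 (R 4.3.3) by its quasi-likelihood test. The p-values of 19330 genes were adjusted by the Benjamini-Hochberg method. CPM are TMM-scaled, and the values permuted were log2 CPM (prior count 2). The script was tested on simulated counts. The members and lists were chosen with earlier results of these data known. The text names the 10 members, *Ror2*, the 3 genes with the smallest p in each pathway list, the 2 most abundant markers of each cell type (only those of epithelium and odontoblasts are given here) and the 3 genes most like *Bmp4*. Marker lists of dental mesenchyme (1 of 8 called, higher), bone and follicle (1 of 7 higher, 2 lower), Schwann cells (1 of 4 higher) and erythroid cells (2 of 5 lower) were also counted. In this order DESeq2 called 3, 3, 1 and 2, the likelihood ratio test 2, 3, 1 and 2, and limma voom 2, 3, 1 and 5. Of the 8 dental mesenchyme markers 5 had a log2 fold change below 0, and their median was −0.21. In the lists of endothelium (6 genes), pericytes and smooth muscle (5) and leukocytes (5), 0 were called by edgeR, with 0, 1 and 1 at an unadjusted p under 0.05 and 0, 1 and 1 called by each of DESeq2, the likelihood ratio test and limma voom.

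Alternatives were DESeq2 1.42.0, edgeR's likelihood ratio test, limma 3.58.1 (voom, and trend on the normalized signal), other scalings and filters, offsets for GC content and length, leaving out each library, and a block for the replicate number. Gene positions, lengths and GC content are of GENCODE M21 (mm10), which matched 27506 of 27506 genes. Replicate libraries differed by more than sampling noise (chi-square per gene at least 44.7). No source states that they are separate animals, so p-values measure the spread between these libraries, and the groups carry different identifier series, which cannot be told apart from genotype.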

Additional observations from a re-analysis of the deposited data

How the results depend on the processing

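The direction of each called BMP gene held under the 18 alternatives, but its call did not. Against 3 in edgeR's quasi-likelihood test, 5 BMP genes passed with DESeq2, edgeR's likelihood ratio test, limma voom and scaling by library size alone, which added *Bmp2* and *Bmp6*. With the offset for GC content, and for GC content and length, 1 passed (*Bmp6*). Leaving out each library gave 0 to 3. Over all genes 3906 passed, against 6341 with limma voom and 872 to 5001 with a library left out. Of the other pathway genes 12 passed, against 21 with DESeq2, 19 with the likelihood ratio test, 24 with limma voom and 3 to 11 with a library left out. The cause of these differences was not tested.

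Directions turned for *Nrp1* (log2 fold change 0.0296 with the offset for GC content and length) and, without mutant library 2, for *Bmp7* and *Acvr1*, none of which was called. With a library left out the log2 fold change of *Bmp7* ranged from −0.228 to 0.0367 and that of *Acvr1* from −0.267 to 0.00177. Of the other single-gene values, 448 stayed on their side of the threshold, 38 newly passed and 71 no longer passed.

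The paper mentions 3 pairs of samples without saying which libraries belong together. Same-numbered libraries deviated from their group means with correlations of −0.10, −0.08 and 0.00. Deviations from means of 3 libraries cannot exclude a pairing, so whether the replicate numbers pair the libraries is not settled. With the replicate number as a block 2013 genes passed, with 1 BMP gene (*Bmp5*, adjusted p = 0.048) and 7 other pathway genes. *Bmpr1a* (adjusted p = 0.051) and *Bmpr2* (0.053) lay just over the threshold, and *Ror2* was no longer called (adjusted p = 0.058).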
